A study of Mus musculus with 6 samples.

Results

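The 9 Polycomb genes described here were measured in regulatory T (Treg) cells of the neonatal liver and spleen: Ezh1, Ezh2, Eed, Suz12 and Jarid2 of Polycomb repressive complex 2 (PRC2), and Bmi1, Ring1, Rnf2 and Cbx7 of Polycomb repressive complex 1 (PRC1). They were taken by gene symbol from the deposited table, which held all 9 of them among 23366 genes. RNA had been sequenced from CD4+GFP+ Treg cells sorted by flow cytometry from Foxp3GFP knock-in mice aged 12 days, whose Foxp3-expressing cells are green fluorescent, Foxp3 being the gene of the factor that defines the Treg lineage. There were 3 libraries from liver and 3 from spleen, of 1 genotype and age, with no treatment. Numbers 1 to 3 in each tissue follow accession order, and the labels pair no libraries. Nothing in the labels states whether libraries came from separate or pooled animals. The p-values thus cover no more than the spread among the 6 libraries. In both tissues number 1 held the X-linked transcript Xist and no Y-linked Ddx3y. Number 2 held Ddx3y and almost no Xist, and number 3 held both. The 3 libraries of a tissue were therefore not repeats of 1 sample, and what the match by number reflects was not tested.

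Polycomb complexes hold genes in a silent state through marks on histones. PRC2 methylates a lysine in the tail of histone H3 through its catalytic subunit, EZH1 or EZH2, which works only together with EED and SUZ12. PRC1 ubiquitinates histone H2A through RING1 or RNF2, joined to 1 of several PCGF proteins such as BMI1, and its canonical form is brought to the PRC2 mark by a CBX protein such as CBX7. EZH2 is known to rise in dividing and activated lymphocytes, is a target of E2F factors, and is needed by activated Treg cells to keep their gene program, while EZH1 is also found in resting cells.

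Ezh2 was the only one of the 9 genes whose level differed between the tissues past the test, so the promoter windows of Ezh2, of its paralog Ezh1 and of its partner Suz12 are shown. Each window runs from 250 bases before to 50 bases after the gene's start and is given 5′ to 3′ on the gene's strand, from RefSeq on GRCm38.p6, a later build than the mm9 of the counts. The Ezh2 window is chr6:47594981-47595280, minus strand, the Ezh1 window chr11:101226414-101226713, minus strand, and the Suz12 window chr11:79992856-79993155, plus strand. Capitals mark matches to the E2F words TTTCCCGC, TTTGGCGC, TTTCGCGC and TTTGCCGC, searched on both strands.
Ezh2: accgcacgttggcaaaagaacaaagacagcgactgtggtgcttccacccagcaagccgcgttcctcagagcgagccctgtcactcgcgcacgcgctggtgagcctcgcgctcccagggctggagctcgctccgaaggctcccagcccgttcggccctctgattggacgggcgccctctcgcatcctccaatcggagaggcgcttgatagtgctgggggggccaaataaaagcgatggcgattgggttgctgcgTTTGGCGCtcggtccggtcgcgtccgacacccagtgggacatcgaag
Ezh1: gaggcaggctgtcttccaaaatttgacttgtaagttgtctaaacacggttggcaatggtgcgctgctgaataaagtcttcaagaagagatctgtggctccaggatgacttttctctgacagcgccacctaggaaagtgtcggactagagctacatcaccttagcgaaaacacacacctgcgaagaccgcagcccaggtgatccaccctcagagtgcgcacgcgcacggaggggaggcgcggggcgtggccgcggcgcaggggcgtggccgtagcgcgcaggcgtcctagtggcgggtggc
Suz12: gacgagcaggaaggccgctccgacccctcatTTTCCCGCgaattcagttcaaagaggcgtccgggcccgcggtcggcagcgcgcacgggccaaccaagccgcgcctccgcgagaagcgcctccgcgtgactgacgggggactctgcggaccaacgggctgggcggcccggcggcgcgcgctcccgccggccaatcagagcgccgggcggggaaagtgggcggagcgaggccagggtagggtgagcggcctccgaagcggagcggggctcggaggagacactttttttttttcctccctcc

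The Ezh2 window held 1 E2F word, TTTGGCGC, at bases 4 to 11 counted from the start site as base 1. The Suz12 window held TTTCCCGC at bases -219 to -212, and the windows of Ezh1 and the other 6 genes held none. Of all 32851 windows of this length 2.26% held such a word, and of the 11219 windows of genes tested here 4.05% did. The word CCAAT stood 3 times in the Ezh2 window and in 6 of the 10 windows of the 9 genes (Jarid2 has a pair of windows), against 37.4% of all windows. The word TTTGAA, known from promoters of mitotic genes, was in the Eed, Suz12 and Cbx7 windows and in 17.9% of all windows. Of windows of genes tested here, 37.9% held CCAAT and 11.9% held TTTGAA. No E2F match overlapped a match to either other word. These are matches of letters, and no factor's binding was measured.

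All 9 genes were well expressed in every library. Levels are given as CPM, a gene's counts scaled to a common library total by edgeR's TMM method. Counts in genes were between 8437055 and 11408960 in 5 libraries and 1199410 in spleen 1, the shallowest library. In spleen 1 the 9 genes had 52 to 430 counts each, and in the other libraries 284 to 4255. All 9 passed the filter on low counts, which left 11716 genes to test. Spleen 1 also stood apart from the other spleen libraries on the first principal component of log2 CPM (55.5% of variance).

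Foxp3 was between 1103 and 1304 CPM in all 6 libraries, with no difference past the test (log2 fold change 0.13, edgeR adjusted p = 0.384), and Cd3e and Cd4 did not pass either. The other 3 of the 6 listed Treg genes did, with Ctla4 (0.89) and Ikzf2 (0.35) higher in liver and Il2ra (-0.60) higher in spleen (edgeR adjusted p = 5.00e-05, 0.0241 and 0.000171). Transcripts listed as markers of other cells differed between the tissues, and which cells they came from was not tested. By edgeR's quasi-likelihood test, 6 of 6 erythroid and 8 of 10 granulocyte markers tested were higher in spleen. So were 7 of 8 macrophage and 4 of 7 B cell genes. Higher in liver were 5 of 8 NK and CD8 T cell genes, while Cd8a, Cd8b1 and Tyrobp did not pass. Of all genes tested 6.90% were higher in spleen and 9.28% in liver. Summed erythroid markers were at 5.87 to 10.3 CPM in the liver libraries and 139 to 233 CPM in the spleen libraries, of which the globin gene Hbb-bs (table symbol Beta-s) made up 4.77 to 7.50 and 62.0 to 129 CPM. The globin symbols Hba-a1, Hba-a2, Hbb-b1 and Hbb-b2 were at 0 in all libraries, for a reason that was not tested. The erythroid sum thus holds nothing from them and need not be the full erythroid level. Summed granulocyte markers were at 280 to 308 against 486 to 825 CPM, macrophage markers at 73.4 to 83.2 against 131 to 204 CPM, B cell markers at 130 to 160 against 220 to 308 CPM, and NK and CD8 T cell markers at 111 to 135 against 43.3 to 58.8 CPM. Hepatocyte markers summed to 2.66 to 11.6 CPM in liver and at most 0.598 CPM in spleen, with 5 of the 6 listed, Alb among them, at 0 in all spleen libraries. The part of these cells in the values of the Polycomb genes was not tested. In such bulk libraries fewer cells of a type and less RNA per cell cannot be told apart.

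Of the 9 Polycomb genes 1 was higher in liver, Ezh2, none was higher in spleen and 8 did not pass (edgeR's quasi-likelihood test, Benjamini-Hochberg adjusted over all genes tested, threshold 0.05). Over all genes 16.2% passed, 9.28% toward liver and 6.90% toward spleen, so the count of 1 in 9 is near the background. The median log2 fold change, liver minus spleen, was 0.16 over the 9 genes and -0.01 over all genes. At an unadjusted p under 0.05, Ezh1, Jarid2 and Ring1 joined Ezh2, and 28.3% of all genes passed. For 4 of the 9 genes liver and spleen libraries were without overlap, with Ezh1, Ezh2 and Suz12 above in liver and Ring1 above in spleen. The same held for 32.9% of all genes, with liver above for 17.7% and spleen above for 15.2%.

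**Figure D1:**
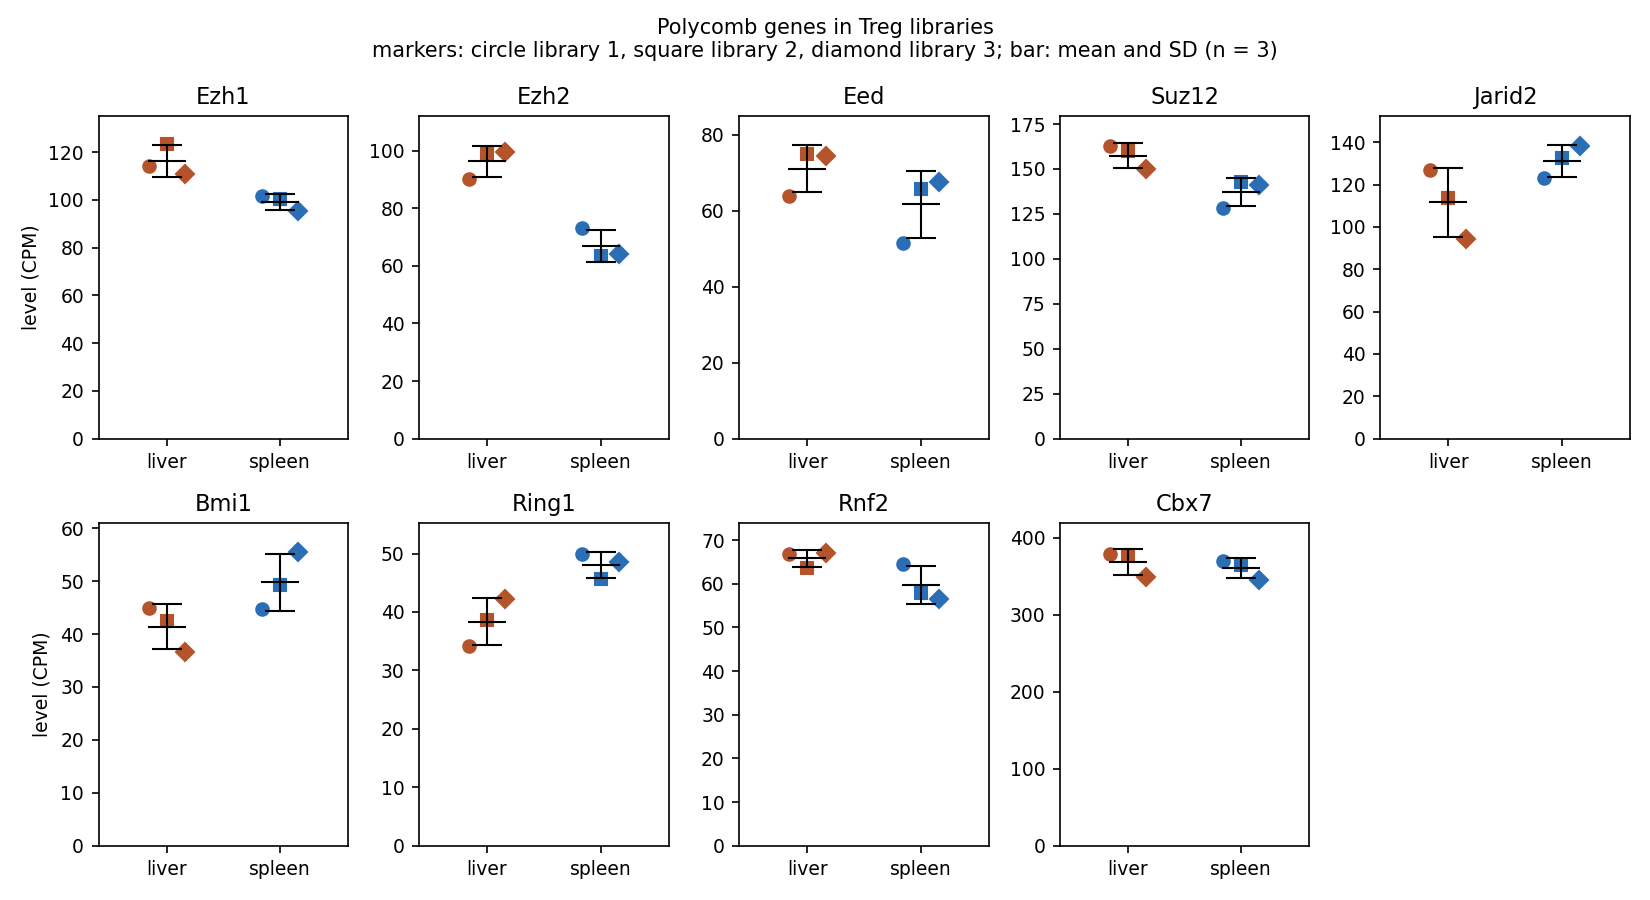
Levels of the 9 Polycomb genes in CPM (vertical axes from 0) in the 3 liver and 3 spleen libraries, with the mean and SD of each tissue. Ezh2 lies between 90.2 and 99.5 CPM in liver and between 63.3 and 73.2 CPM in spleen, while the libraries of the tissues overlap for Eed, Jarid2, Bmi1, Rnf2 and Cbx7.

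Ezh2 encodes the methyltransferase subunit of PRC2 that is typical of dividing cells. Its level was 90.2, 99.4 and 99.5 CPM in liver 1 to 3 and 73.2, 63.3 and 64.3 CPM in spleen 1 to 3. The lowest liver library lay above the highest spleen library. The means were 96.4 ± 5.34 and 66.9 ± 5.43 CPM (SD, n = 3 each), a 1.47-fold higher level in liver. The log2 fold change was 0.55 ± 0.11 (SE), with a 95% interval from 0.32 to 0.79 and an edgeR adjusted p of 0.00189. It passed the test under each of the 16 other settings tried, with log2 fold changes from 0.51 to 0.60 and adjusted p from 7.61e-05 to 0.0241, spleen 1 left out among them.

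Of 16 listed S phase genes 8 were higher in liver, where 9.28% of all genes were, none was higher in spleen and 8 did not pass, with a median log2 fold change of 0.44, below the 0.55 of Ezh2. The S phase count was 4 without spleen 2 and at equal depth, and 12 without spleen 1 and with limma-voom. For G2 phase and mitosis, 15 of 15 listed genes passed toward liver, with a median of 1.52. Summed S phase genes were at 1683 to 1851 CPM in liver and 1264 to 1558 CPM in spleen, and summed G2 and mitosis genes at 2300 to 2543 against 846 to 997 CPM. Spleen 1 was the highest of the spleen libraries in both sums, as it was for Ezh2. The G2 and mitosis sum was 2300, 2389 and 2543 CPM in liver 1 to 3, lowest in liver 1, as Ezh2 was. For the S phase sum the liver order differed, since liver 2 had the lowest sum and liver 1 the lowest Ezh2 level. Mcm6, part of the replicative helicase, was at 209, 203 and 234 CPM in the liver libraries and 173, 154 and 153 CPM in the spleen libraries. Pcna, the sliding clamp of DNA polymerases, overlapped between the tissues and did not pass (log2 fold change 0.28 ± 0.11, edgeR adjusted p = 0.0770). The part of cell division in the Ezh2 difference was not tested.

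Ezh1, the paralog that can replace Ezh2 in PRC2, was at 114, 124 and 111 CPM in liver and 102, 100 and 95.5 CPM in spleen. All liver libraries lay above all spleen libraries, but the difference did not pass (log2 fold change 0.24 ± 0.10, edgeR adjusted p = 0.124). With limma-voom and sample quality weights it passed, at 0.26 and an adjusted p of 0.0347, and it did not under the other settings. Ezh1 thus lay on the same side of spleen as Ezh2 with a smaller difference, and the ratio of both genes within a library, which needs no scaling, was compared directly.

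The count ratio of Ezh2 to Ezh1 was 0.789, 0.804 and 0.896 in liver 1 to 3 and 0.720, 0.631 and 0.673 in spleen 1 to 3. Every liver ratio was above every spleen ratio. The difference of the mean log2 ratio was 0.30, against SDs of 0.10 in liver and 0.10 in spleen (exact two-sided permutation test, p = 0.1, the smallest that 3 against 3 libraries allow). Adjusted for the length of the principal transcript, Ezh2 made up 55.5% ± 1.68 of the summed level of both genes in liver and 50.3% ± 1.65 in spleen (SD, n = 3 each). With union exon lengths, chosen after seeing the data, the shares were 48.0% ± 1.70 in liver and 42.9% ± 1.62 in spleen, so which paralog is the more abundant depends on the length used, while every liver share stayed above every spleen share.

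Eed and Suz12 encode the subunits that EZH1 and EZH2 need. Eed, whose product binds the methyl mark and stimulates the complex, was at 64.0, 75.0 and 74.4 CPM in liver and 51.6, 65.6 and 67.7 CPM in spleen. The tissues overlapped, since the lowest liver library fell below spleen 2 and spleen 3 (log2 fold change 0.16 ± 0.13, edgeR adjusted p = 0.445). Suz12, the scaffold of the complex, was at 163, 160 and 150 CPM in liver and 128, 143 and 141 CPM in spleen. Its libraries did not overlap, but the difference was small and did not pass (0.18 ± 0.09, edgeR adjusted p = 0.209). The 95% intervals ran from -0.11 to 0.43 for Eed and from -0.01 to 0.38 for Suz12. The estimate of 0.55 for Ezh2 lay outside both, but its own interval, from 0.32 to 0.79, overlapped both. Whether Ezh2 differed from Eed or Suz12 in this was not tested.

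Jarid2, an accessory subunit that guides PRC2 to chromatin and tunes its activity, had the opposite sign from the catalytic subunits. It was at 127, 114 and 94.4 CPM in liver and 123, 133 and 138 CPM in spleen. Only liver 1 reached into the spleen range, and the liver libraries spread more widely (SD 16.3 against 7.56 CPM, n = 3 each). The log2 fold change was -0.25 ± 0.11 (edgeR adjusted p = 0.154). Its 95% interval, from -0.49 to -0.01, does not meet that of Ezh2.

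Among the PRC1 genes, Ring1 and Rnf2 encode the alternative ubiquitin ligase subunits. Ring1 was at 34.1, 38.7 and 42.2 CPM in liver and 49.9, 45.6 and 48.6 CPM in spleen. All spleen libraries lay above all liver libraries, and the difference did not pass (log2 fold change -0.31 ± 0.14, edgeR adjusted p = 0.154). With all libraries thinned at random to the depth of spleen 1 it passed, at -0.64 and an adjusted p of 0.0418. Rnf2 was at 66.7, 63.6 and 67.1 CPM in liver and 64.6, 57.9 and 56.4 CPM in spleen. The Rnf2 libraries overlapped in spleen 1 alone (0.17 ± 0.12, edgeR adjusted p = 0.399).

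The count ratio of Rnf2 to Ring1 was 1.95, 1.64 and 1.59 in liver 1 to 3 and 1.29, 1.27 and 1.16 in spleen 1 to 3. All 3 liver ratios exceeded the highest spleen ratio. The mean log2 ratio differed by 0.47, with SDs of 0.16 in liver and 0.08 in spleen (exact two-sided permutation test, p = 0.1, the smallest possible here). The 2 ratios compared have an adjusted p of 0.1 each by the Benjamini-Hochberg method. Per transcript length, Rnf2 made up 52.2% ± 2.77 of the summed level of both genes in liver and 44.1% ± 1.44 in spleen (SD, n = 3 each). At equal depth the difference of the mean log2 ratio was 0.78.

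Bmi1, the PCGF subunit of canonical PRC1 that represses the Cdkn2a locus in stem cells and lymphocytes, was at 45.0, 42.6 and 36.7 CPM in liver and 44.8, 49.2 and 55.5 CPM in spleen. Liver 1 and spleen 1 were nearly equal and the other libraries lay apart. The difference did not pass (log2 fold change -0.30 ± 0.14, edgeR adjusted p = 0.177). Cbx7, which reads the PRC2 mark, was at 379, 377 and 348 CPM in liver and 370, 365 and 345 CPM in spleen. These ranges overlapped almost fully. Its log2 fold change of 0.03 ± 0.09 (edgeR adjusted p = 0.852) had a 95% interval from -0.16 to 0.23 and turned to -0.0092 with upper-quartile scaling.

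Levels of different genes were compared per kilobase of the principal transcript (GENCODE M21), as CPM per kb. In liver the order was Cbx7 at 109 ± 5.06, Suz12 at 36.0 ± 1.55, Ezh2 at 34.6 ± 1.92, Eed at 34.4 ± 3.0, Ezh1 at 27.7 ± 1.56, Rnf2 at 20.5 ± 0.605, Ring1 at 18.9 ± 1.99, Jarid2 at 18.6 ± 2.72 and Bmi1 at 11.5 ± 1.19 CPM per kb (SD, n = 3). Suz12, Ezh2 and Eed did not differ beyond their spread, nor did Rnf2, Ring1 and Jarid2. In spleen Cbx7 was at 106 ± 3.86, Suz12 at 31.4 ± 1.80 and Eed at 29.8 ± 4.23 CPM per kb. By mean level, Ezh2 at 24.0 ± 1.95 came next. With Ezh1 at 23.6 ± 0.769, Ring1 at 23.6 ± 1.09 and Jarid2 at 21.9 ± 1.26 it formed a group with overlapping libraries. Rnf2 at 18.6 ± 1.35 and Bmi1 at 13.9 ± 1.5 CPM per kb followed. With these lengths Ezh2 was level with Suz12 in liver and below it in every spleen library, while Ezh2 and Eed overlapped in both tissues. The annotation used for counting is not given in the sources used here, and the order turned with the length. Per kilobase of union exons, Ezh2 was at 14.4 ± 0.80 CPM per kb in liver, below Eed at 18.6 ± 1.62 and Suz12 at 31.8 ± 1.37. It was also narrowly below Ezh1, at 15.6 ± 0.879 CPM per kb. The highest liver library was at 14.89 for Ezh2, and the lowest at 14.93 for Ezh1. Cbx7, at 56.8 ± 2.64 in liver and 55.5 ± 2.02 CPM per kb in spleen, and Suz12 remained the highest of the 9 genes in both tissues.

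The PCGF proteins are alternative partners of RING1 and RNF2, and each marks a form of PRC1. Among 6 PCGF genes, Bmi1 and Pcgf1 had the highest mean shares of the summed per-length level in both tissues, with Bmi1 at 29.5%, 26.5% and 20.95% in liver and 30.8%, 31.3% and 29.9% in spleen. These shares rest on principal transcript lengths, for Pcgf1 918 bases against 1649 of union exons. They were not computed with union exon lengths.

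**Figure D2:**
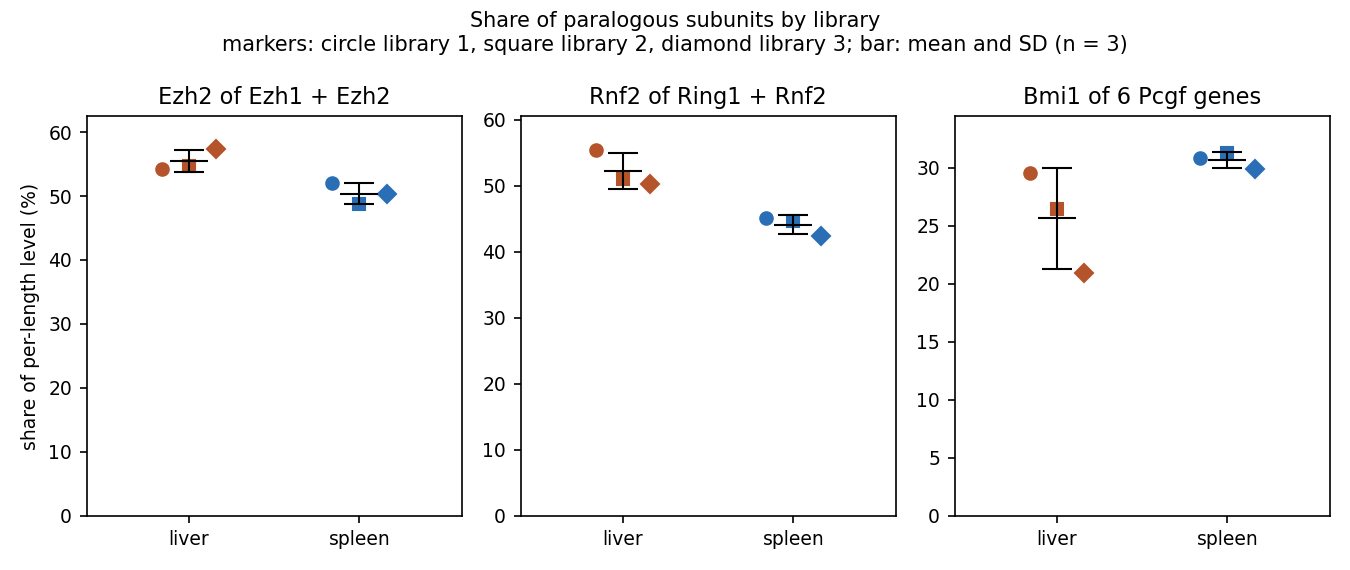
Share of the summed per-length level (percent, vertical axes from 0) held by Ezh2, Rnf2 and Bmi1 among their paralogs in each library, with mean and SD. Shares of Ezh2 and Rnf2 are higher in all liver libraries than in all spleen libraries, and that of Bmi1 is lower. For Bmi1 the nearest libraries are liver 1 at 29.5% and spleen 3 at 29.9%.

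A further 5 lists held 55 genes of the same complexes and of the enzymes that oppose them, 52 of which were tested. Calls toward liver numbered 2 and calls toward spleen 5, and 45 genes did not pass. That is 13.5% of them, against 16.2% of all genes, and their median log2 fold change was -0.13.

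**Figure D3:**
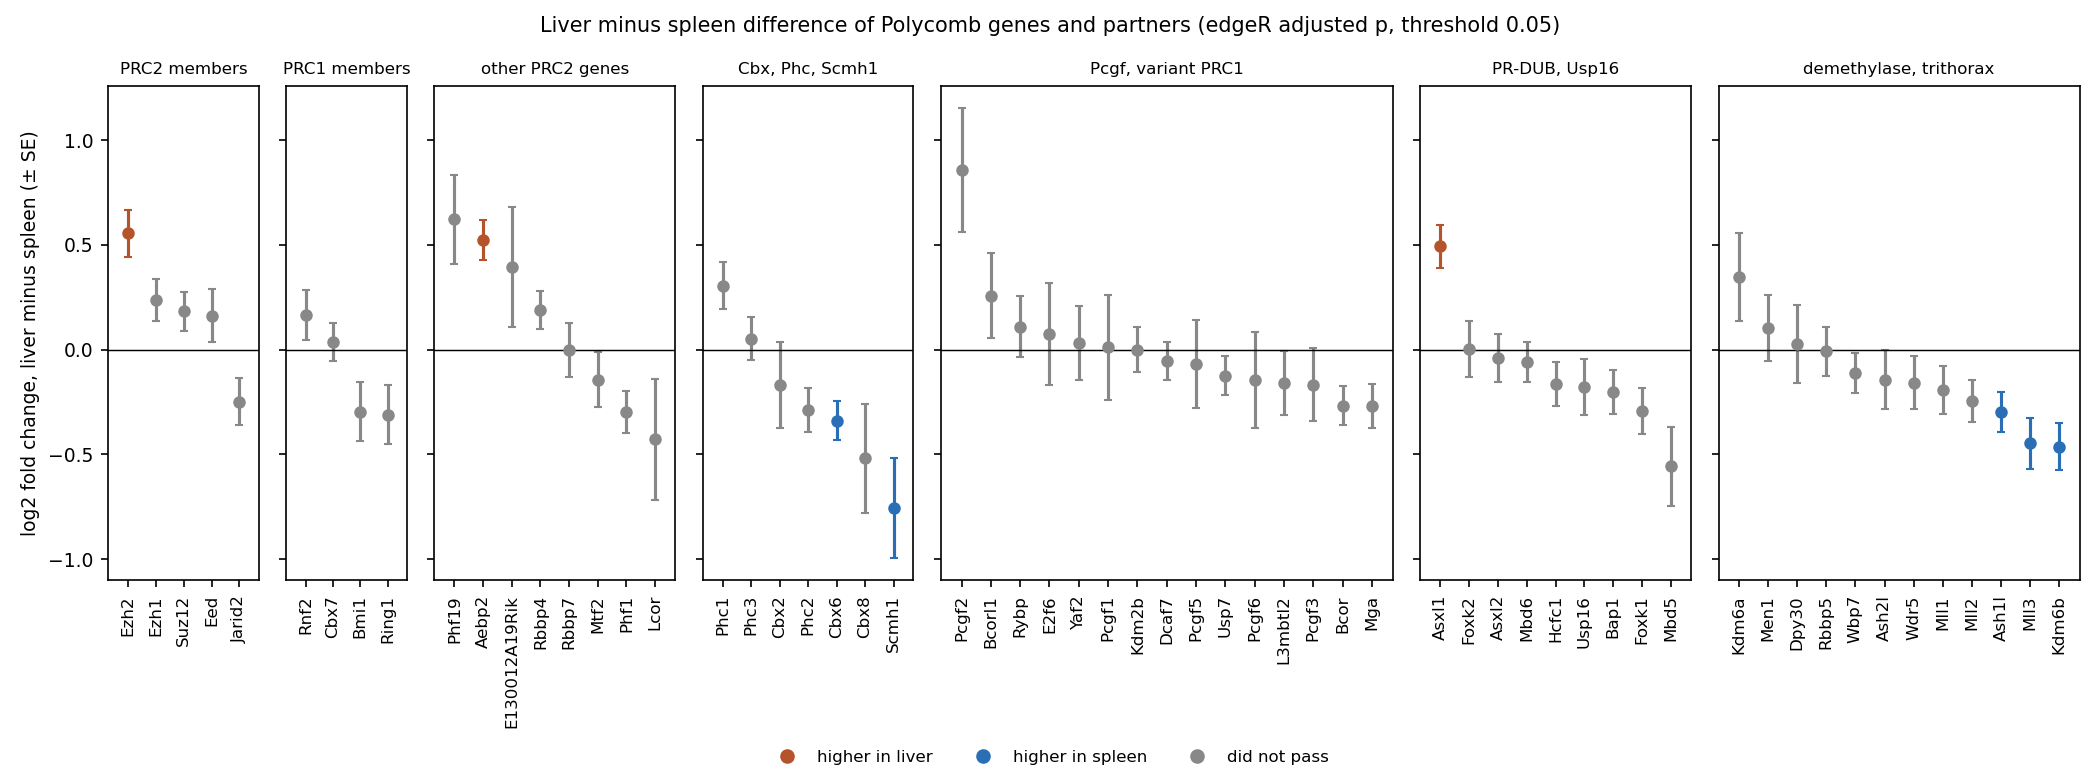
Log2 fold change, liver minus spleen, with its SE for the 9 Polycomb genes (the 2 panels on the left) and 51 of the 52 tested partner and opposing genes, by list. Genes past the threshold are coloured, with Ezh2, Aebp2 and Asxl1 above 0 and Cbx6, Scmh1, Ash1l, Mll3 and Kdm6b below it.

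Of 8 other PRC2 genes tested, 1 was higher in liver and 7 did not pass. Among all genes tested, 9.28% were higher in liver. Aebp2, whose product joins PRC2 together with JARID2, was at 233, 213 and 197 CPM in liver and 154, 146 and 150 CPM in spleen. The tissues were clearly apart, with a log2 fold change of 0.52 ± 0.10 (edgeR adjusted p = 0.000851), and the gene passed under all 16 other settings. Aebp2 and Jarid2, which act in the same form of PRC2, thus had differences of opposite sign. Phf1, a subunit of the other form, was at 168, 171 and 202 CPM in liver and 203, 222 and 235 CPM in spleen. It missed the threshold narrowly (-0.30 ± 0.10, edgeR adjusted p = 0.0504) and passed toward spleen under 12 of the 16 other settings. Rbbp4, the histone chaperone subunit, did not pass (0.19 ± 0.09, edgeR adjusted p = 0.184).

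Of 8 genes for other CBX, PHC and SCMH subunits of PRC1, none was higher in liver, 2 were higher in spleen and 6 did not pass. Among all genes tested, 6.90% were higher in spleen. Cbx6 was at 111, 110 and 113 CPM in liver and 147, 140 and 139 CPM in spleen, a log2 fold change of -0.34 ± 0.09 (edgeR adjusted p = 0.0163). Scmh1 was at 8.30, 13.4 and 8.89 CPM in liver and 17.2, 18.6 and 16.1 CPM in spleen (-0.76 ± 0.24, edgeR adjusted p = 0.0372). Both were apart in all libraries, and neither call was stable. Cbx6 did not pass without liver 1, liver 2, spleen 2 or spleen 3, with adjusted p up to 0.0841, and Scmh1 did not pass at equal depth or without liver 1, liver 3, spleen 2 or spleen 3, with adjusted p up to 0.185. Phc3, the most abundant gene of this list, missed the threshold (0.05 ± 0.10, edgeR adjusted p = 0.796).

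Of 15 tested genes for the PCGF proteins and the subunits of variant PRC1, 0 passed by edgeR's quasi-likelihood test, with 1 toward spleen by limma-voom, 0 by DESeq2's Wald test and at most 2 under any other setting. The 2 most abundant, the deubiquitinase gene Usp7 (log2 fold change -0.12 ± 0.09, edgeR adjusted p = 0.419) and Dcaf7 (-0.06 ± 0.09, edgeR adjusted p = 0.746), differed little. At the adjusted threshold 16.2% of all genes passed by edgeR's test. At an unadjusted p under 0.05, 3 of the 15 passed, against 28.3% of all genes.

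Of 9 tested genes for enzymes that remove the PRC1 mark and their partners, Asxl1 alone passed, toward liver. Over all genes tested 16.2% passed, 9.28% toward liver. ASXL1 activates the deubiquitinase BAP1 and is often mutated in myeloid disease. Asxl1 was at 591, 591 and 502 CPM in liver and 441, 384 and 378 CPM in spleen. Every liver library was above every spleen library, with a log2 fold change of 0.49 ± 0.10 (edgeR adjusted p = 0.00240), and the gene passed under all 16 other settings. Hcfc1, the other abundant gene of the list, did not pass (-0.16 ± 0.10, edgeR adjusted p = 0.325).

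The H3K27 demethylase and trithorax genes, whose products oppose Polycomb, included 3 of 12 genes higher in spleen and none higher in liver. Over all genes 6.90% passed toward spleen and 9.28% toward liver. Kdm6b, which encodes the demethylase JMJD3, was at 203, 186 and 151 CPM in liver and 224, 248 and 265 CPM in spleen. The liver libraries were all lower, with a log2 fold change of -0.46 ± 0.11 (edgeR adjusted p = 0.00698), and the call stood under all 16 other settings. Kdm6b therefore had the opposite sign from the methyltransferase gene Ezh2. Mll3 (Kmt2c) and Ash1l, both histone methyltransferase genes, were also lower in liver, with log2 fold changes of -0.45 ± 0.12 and -0.30 ± 0.10 (edgeR adjusted p = 0.0156 and 0.0419). Mll3 did not pass at equal depth or without liver 3, spleen 2 or spleen 3 (adjusted p up to 0.0738), and Ash1l did not pass with any 1 library left out (adjusted p up to 0.146). The abundant Mll2 (Kmt2d) and Mll1 (Kmt2a) had log2 fold changes of -0.24 ± 0.10 and -0.19 ± 0.11 and missed the threshold (edgeR adjusted p = 0.116 and 0.287).

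**Figure D4:**
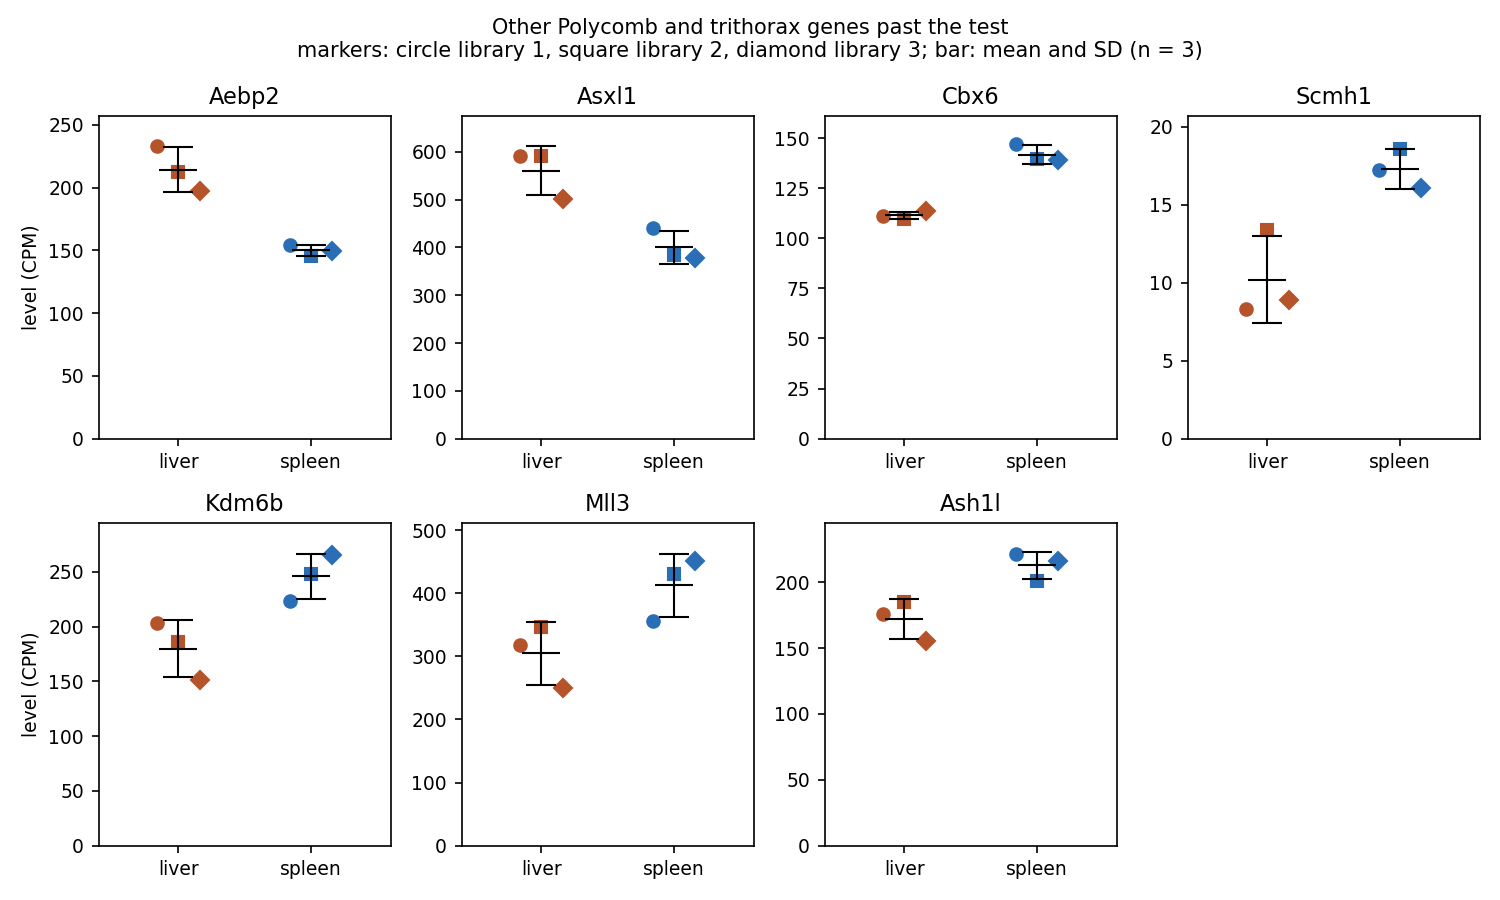
Levels in CPM (vertical axes from 0) of the 7 partner and opposing genes past the test, in each liver and spleen library with mean and SD. Aebp2 and Asxl1 are higher in all liver libraries, and Cbx6, Scmh1, Kdm6b, Mll3 and Ash1l higher in all spleen libraries.

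Genes known from other cells as targets of Polycomb were mostly at or near 0 in both tissues. Of 24 listed, 15 did not pass the filter on low counts, among them the cell cycle inhibitor gene Cdkn2a and the 7 listed Hox genes, and none of these 15 exceeded 0.861 CPM in any library. That highest value was Hoxa7 in spleen 1, where the floor of 3 counts was 2.58 CPM. The 9 genes tested are mainly those that T cells use, and a gene high in 1 tissue passed the filter through it. Calls toward liver numbered 5 and toward spleen 2, while 2 genes did not pass. Over all genes 9.28% were called toward liver and 6.90% toward spleen. The list was chosen with earlier results of these data known. The log2 fold changes were 1.99 ± 0.13 for Prdm1, 2.53 ± 0.23 for Il10, 2.38 ± 0.26 for Tbx21 and 2.0 ± 0.35 for Ifng, the genes of the factor Blimp-1, an anti-inflammatory cytokine, the factor T-bet and interferon-gamma.

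The T-box gene Eomes went the other way, at 0.361, 1.56 and 0.556 CPM in liver and 10.3, 8.83 and 9.74 CPM in spleen. The libraries did not overlap (log2 fold change -3.46 ± 0.47, edgeR adjusted p = 4.41e-05). The liver values rest on 3, 17 and 6 counts, and leaving out 1 library moved the log2 fold change between -3.14 (without liver 1) and -4.30 (without liver 2). Its close relative Tbx21 was at 30.5, 23.2 and 37.6 CPM in liver and 7.75, 4.28 and 7.01 CPM in spleen. Ccnd2, a G1 cyclin gene, was at 349, 338 and 332 CPM in liver and 446, 553 and 571 CPM in spleen (-0.63 ± 0.10, edgeR adjusted p = 0.000291). Gata3 did not pass (0.26 ± 0.09, edgeR adjusted p = 0.0617). Histone marks were not measured, so these levels say nothing of Polycomb occupancy.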

How the data were processed

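The authors deposited raw read counts per gene symbol and library. The submitters' processing notes name HISAT2 2.1, HTSeq 0.11 and mm9. Annotation and strand setting: not given in the sources used here. The table held 23366 genes and 5 HTSeq summary rows, which took 25.5% to 29.0% of a library's counts and were left out. Without strand, reads of overlapping genes cannot be told apart. In GENCODE M21, Ezh2, Eed, Suz12, Rnf2 and Cbx7 share 100 to 261 exonic bases with a gene on the other strand.

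Counts were filtered with filterByExpr, scaled by TMM and tested for liver minus spleen with the quasi-likelihood F test of edgeR 4.0.16 in R 4.3.3, with Benjamini-Hochberg adjustment. SEs are those implied by the F statistic, and intervals are at 95%. The script was tested on simulated counts. Alternatives used DESeq2 1.42.0 and limma 3.58.1, other scalings and filters, equal depth, and each library left out. A block on sex-linked transcripts was chosen after seeing the data. Every pair of libraries differed by more than sampling noise, with chi-square over its degrees of freedom at 4.56 or above. Older symbols were matched through RefSeq, so 6 partner genes carry them: Epop is E130012A19Rik, Kmt2a Mll1, Kmt2b Wbp7, Kmt2c Mll3, Kmt2d Mll2 and Ezhip AU022751.

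The 9 genes and the lists were chosen with earlier results of these data known. The text names all 9, the genes of each partner list past the threshold (at most the 6 with the smallest p) with the 2 most abundant, the most abundant cell cycle and marker genes, and the 3 genes most correlated with Ezh2. Some marker and cell cycle genes of the rule are given only in sums, and other names were chosen after their values were seen. A gene of the lists is counted in them and not reported here by name.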

Additional observations from a re-analysis of the deposited data

How the results depend on the processing

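Ezh2, Aebp2, Asxl1 and Kdm6b kept their direction and passed under all 16 alternatives. Over the genes tested, calls toward liver and spleen numbered 618 and 423 at equal depth, 722 to 1245 and 486 to 989 with a library left out (lowest without spleen 2, highest without spleen 1), and 1521 and 1243 with limma-voom. Limma-voom called 2 of the 9 Polycomb genes toward liver, with Ezh1 at 0.26, and equal depth 1 toward spleen, Ring1 at -0.64. Cbx7 reversed to -0.0092 with upper-quartile scaling. Over the 6 partner, opposing and target lists, calls were 7 each way. Those toward spleen were 13 with upper-quartile scaling and 3 to 10 with a library left out (3 without spleen 2 or spleen 3), and limma-voom gave 11 and 13. Dcaf7 reversed to 0.041 at equal depth, Phc3 to -0.0050 without liver 1 (up to 0.15 with another left out), and the marker Tyrobp to 0.14 with limma-voom, 0.14 without liver 3 and 0.36 without spleen 3 (down to -0.47 without spleen 2). The cause was not tested. Of the genes that did not pass, Suz12 ranged from 0.14 to 0.33, Eed from 0.10 to 0.23, Jarid2 from -0.35 to -0.15, Bmi1 from -0.36 to -0.20 and Rnf2 from 0.12 to 0.20. The log2 ratio differences ranged from 0.24 to 0.35 for Ezh2 to Ezh1 and from 0.38 to 0.78 for Rnf2 to Ring1. From the labels alone no paired analysis was possible because they give no shared replicate numbers. A block on sex-linked transcripts, chosen after seeing the data, set each liver library with the spleen library of the same number. Under it 1 Polycomb gene was called, Ezh2 at 0.56. Depth limits spleen 1 most: its 52 Bmi1 counts set the precision there.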

Other observations

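The demethylase gene Kdm6a, which is X-linked and known to escape X inactivation, had ranges that overlapped between the tissues. Liver 1 had 167 CPM and spleen 1 had 131 CPM, the libraries with Xist at 1148 and 1299 CPM and the Y-linked Ddx3y listed at 0. Liver 2 had 90.1 CPM and spleen 2 had 71.4 CPM, and these held Ddx3y at 117 and 116 CPM and almost no Xist. Liver 3 and spleen 3, with both transcripts, had Kdm6a at 94.6 and 91.4 CPM. Liver minus spleen, its log2 fold change was 0.35 ± 0.21 (edgeR adjusted p = 0.309). This gene was chosen after its values were seen.

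The 3 genes whose log2 CPM was most correlated with that of Ezh2 over the 6 libraries, among 8755 genes of at least 10 CPM, were Gtf3c5 (Pearson's r = 0.995), Neu3 (r = 0.995) and Tmem33 (r = 0.993). The 6 points share the split by tissue. Their levels lay above spleen in all liver libraries and did not pass the test, with edgeR adjusted p of 0.0505, 0.0646 and 0.0838.

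The cell cycle inhibitor gene Cdkn1c, a known Polycomb target, was at 25.7, 25.7 and 31.0 CPM in liver and 17.2, 13.9 and 11.5 CPM in spleen. The tissues did not overlap, and the log2 fold change was 1.05 ± 0.20 (edgeR adjusted p = 0.00112). Pcgf2, a paralog of Bmi1, was at 13.6, 10.9 and 19.1 CPM in liver and 2.58, 8.91 and 8.80 CPM in spleen. It did not pass (0.86 ± 0.29, edgeR adjusted p = 0.0563), and spleen 1 was at the floor of 3 counts. Both were named after their values were seen.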
